A study of Rattus norvegicus with 9 samples.

Results

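Hba1, Hba2, Hbb-b1, Alas2 and Ahsp were followed in the renal outer medulla of rats as transcripts of haemoglobin and of the cells that make it. They are the rows of the deposited gene table whose short name equals one of these names, ignoring case. Each name had 1 row, so 5 of the 30315 loci in the table were described, all 5 of which averaged 1 FPKM or more over the libraries. The genes were picked on the FPKM of these same libraries, with the differences between the 3 groups known, and their levels are therefore given as a description, with no test of the members.

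Haemoglobin, the oxygen carrier of red cells, is a tetramer of alpha and beta globin chains, each holding a haem. Hba1 and Hba2 encode alpha chains and Hbb-b1 a beta chain. Alas2 encodes the erythroid form of 5-aminolevulinate synthase, which starts haem synthesis in red cell precursors, and Ahsp encodes a chaperone that binds free alpha chains until beta chains take them up. Mammalian red cells lose their nucleus, and the youngest circulating ones, the reticulocytes, still carry globin mRNA, while the erythroid transcription factors belong mainly to earlier stages in the marrow and spleen. The kidney itself makes erythropoietin, the hormone that sustains these precursors. The outer medulla is supplied by the vasa recta, straight vessels that run in dense bundles.

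All 9 rats were of the MCW SS strain, a salt-sensitive line, and all had the same surgical preparation. The 3 HS_DT rats received GapmeRs, antisense oligonucleotides that direct cleavage of their target RNA, against Dnmt3a and Tet3 into the kidney at 2 mg/kg each, with a diet of 4% NaCl for 7 days. The 3 HS_SCR rats received a scrambled GapmeR at 4 mg/kg by the same route and the same diet. The 3 rats labelled 0.4% salt were on 0.4% NaCl and gave tissue just before GapmeR and high salt would have begun. The HS_DT and HS_SCR groups thus share the oligonucleotide injection and the diet, and neither of these can be told apart from the other, or from time, in a comparison with 0.4% salt. The labels give neither age nor whether the kidney was flushed of blood.

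Levels are FPKM, fragment numbers scaled to transcript length and library size, which are per length and can be compared between genes. The table holds no read counts, and depth is therefore unknown. Relative depth, estimated from loci where single fragments set the value, ran from 0.761 to 1.37. The thick ascending limb genes Umod and SLC12A1 were present in every library, at 381 to 2608 FPKM and 451 to 975 FPKM. They mark that tubule segment and do not by themselves check the region dissected. Summed FPKM of 15 proximal tubule markers ran from 355 in HS_SCR replicate 3 to 6097 in 0.4% salt replicate 2. Why these tubular levels differed was not tested. HS_SCR replicate 3 was far from the rest on principal component 2 of the tested loci, at -51.47, against -2.34 to 24 for the other 8 libraries, and it also decides several of the values for the 5 genes. The transcripts aimed at, Dnmt3a and Tet3, averaged 10 and 8.03 FPKM in the libraries labelled HS_DT, 7.70 and 6.24 FPKM in those labelled HS_SCR, and 12.8 and 9.16 FPKM in 0.4% salt. Neither difference between HS_DT and HS_SCR passed the limma test (adjusted p = 0.303 and 0.271, both higher in HS_DT), so HS_DT and HS_SCR are named by their labels throughout. The rat numbers in the labels fall in a lower series (HS_DT and HS_SCR replicates 1 and 2) and a higher series (replicate 3 of both groups and all 3 rats of 0.4% salt). What the series stands for is not stated in the labels.

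The sequence just upstream of the globin genes is where erythroid factors are known to bind, and 4 windows are shown because these genes moved together across the libraries. Each holds the 250 bases before the start site in RefSeq, build GRCr8, on the minus strand: chr10:15842581-15842830 for Hba-a1, chr10:15829139-15829388 for Hba-a2, chr1:167643521-167643770 for Hbb-b1 and chr1:167663722-167663971 for Hbb, the other main adult beta globin gene. RefSeq lists Hba1 as a synonym of both alpha genes and Hba2 as a synonym of Hba-a2 alone, so which alpha gene the row named Hba1 holds is not settled by its name. Capitals mark the GATA motif, searched on both strands as AGATAA, also ending in G (AGATAG), and with T for the first letter (TGATAA, also ending in G: TGATAG).
Hba-a1: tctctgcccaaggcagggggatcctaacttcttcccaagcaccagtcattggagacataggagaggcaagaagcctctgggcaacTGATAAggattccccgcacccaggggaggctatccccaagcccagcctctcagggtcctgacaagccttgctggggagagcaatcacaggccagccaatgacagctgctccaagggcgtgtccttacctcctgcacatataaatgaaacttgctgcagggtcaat
Hba-a2: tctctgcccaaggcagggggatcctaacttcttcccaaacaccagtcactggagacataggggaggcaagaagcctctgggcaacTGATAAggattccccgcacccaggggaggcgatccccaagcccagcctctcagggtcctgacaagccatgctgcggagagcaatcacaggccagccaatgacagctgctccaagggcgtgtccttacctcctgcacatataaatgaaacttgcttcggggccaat
Hbb-b1: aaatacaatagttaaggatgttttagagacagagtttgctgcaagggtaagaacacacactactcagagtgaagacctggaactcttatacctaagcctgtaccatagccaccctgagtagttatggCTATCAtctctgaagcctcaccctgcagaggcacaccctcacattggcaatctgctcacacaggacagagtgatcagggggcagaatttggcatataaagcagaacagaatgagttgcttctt
Hbb: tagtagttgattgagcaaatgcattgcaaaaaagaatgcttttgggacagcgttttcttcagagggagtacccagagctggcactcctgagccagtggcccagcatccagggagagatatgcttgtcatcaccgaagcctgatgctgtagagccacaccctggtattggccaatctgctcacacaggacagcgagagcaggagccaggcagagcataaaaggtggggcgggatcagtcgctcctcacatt

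The Hba-a1 and Hba-a2 windows were identical at 241 of 250 bases (96.4%), and the alpha genes are also known for near-identical transcripts. How fragments that match both were counted is not stated, so the split of FPKM between Hba1 and Hba2 is uncertain. Both alpha windows held TGATAA from base -165 to -160, and the Hbb-b1 window held its reverse-strand form CTATCA from -123 to -118. The Hbb window held no form of the motif. A GATA motif was found in 27.0% of 33469 rat promoter windows of this length. The motif CACCC, the core of sites read by factors such as Klf1, was found in all 4 windows, with 3 copies in Hbb-b1 and 1 in each other window on either strand, against 49.2% of all windows. A TATAAA box was found from -28 in both alpha windows and from -30 in Hbb-b1, against 12.9% of all windows. These are matches of letters and do not show binding.

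All 5 genes were highest in HS_SCR, intermediate in HS_DT and lowest in 0.4% salt by group mean. Hba1 was at 1776, 2324 and 1695 FPKM in HS_DT, 8246, 5325 and 1267 FPKM in HS_SCR, and 708, 723 and 463 FPKM in 0.4% salt. The lowest rat on high salt was thus above the highest rat of 0.4% salt, while HS_SCR replicate 3 fell below all 3 HS_DT rats. Among all loci of its library, Hba1 ranked 29, 22 and 35 by FPKM in HS_DT, 11, 16 and 75 in HS_SCR, and 119, 104 and 170 in 0.4% salt. In bulk tissue, more cells of a type and more RNA per cell cannot be told apart.

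Hba2 was at 712, 717 and 557 FPKM in HS_DT, 1947, 1255 and 536 FPKM in HS_SCR, and 265, 277 and 185 FPKM in 0.4% salt. The order of the 9 libraries was the same as for Hba1. Hbb-b1 was at 124, 179 and 127 FPKM in HS_DT, 424, 347 and 62.6 FPKM in HS_SCR, and 44.5, 42.6 and 30.8 FPKM in 0.4% salt. HS_SCR replicates 1 and 2 were again the highest, and HS_SCR replicate 3 was again between the HS_DT rats and those of 0.4% salt.

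The enzyme gene Alas2, at a far lower level, was at 7.76, 11.9 and 9.24 FPKM in HS_DT, 38.5, 31.5 and 7.35 FPKM in HS_SCR, and 3.15, 3.29 and 1.66 FPKM in 0.4% salt. Its libraries fell in the order of the globins at both ends. The chaperone gene Ahsp was the lowest of the 5, at 0.862, 2.22 and 1.60 FPKM in HS_DT, 8.98, 8.42 and 2.27 FPKM in HS_SCR, and 0.578, 0.402 and 0.275 FPKM in 0.4% salt. For Ahsp alone, HS_SCR replicate 3 lay above every HS_DT rat, by 2.27 against 2.22 FPKM for the nearest.

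**Figure D1:**
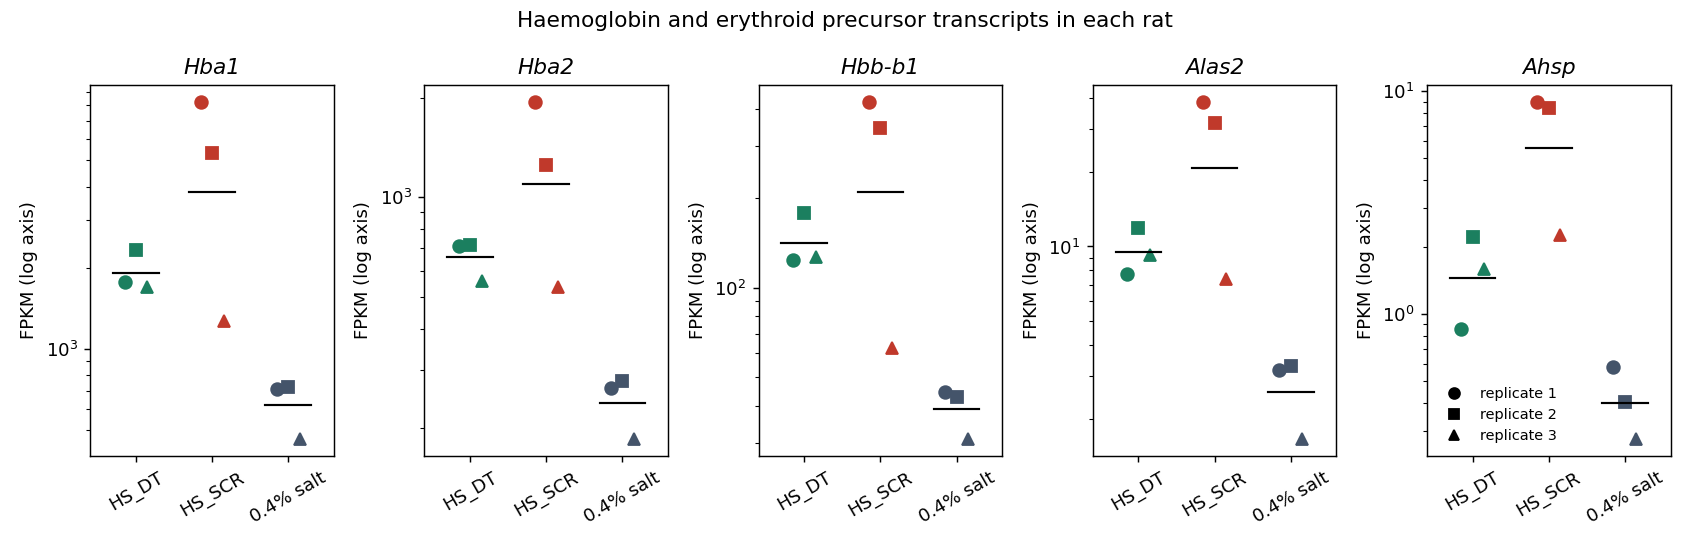
FPKM of the 5 genes (log axis) in each rat, by group; marker shapes are replicate numbers, which pair no rats across groups, and lines are geometric means of 3 rats. HS_SCR replicates 1 and 2 are the highest libraries in every panel. The 0.4% salt rats are the lowest, with Hba1 at 463 to 723 FPKM. HS_SCR replicate 3 lies below the HS_DT rats for Hba1, Hba2, Hbb-b1 and Alas2, farthest for Hbb-b1, at 62.6 against 124 FPKM for the lowest of them. For Ahsp it lies just above them, at 2.27 against 2.22 FPKM for the nearest.

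The spread within groups was much larger in HS_SCR than in the others. Hba1 averaged 1932 ± 342 FPKM in HS_DT, 4946 ± 3505 FPKM in HS_SCR and 631 ± 146 FPKM in 0.4% salt (SD, n = 3 each). Hbb-b1 averaged 144 ± 30.8 FPKM in HS_DT, 278 ± 190 FPKM in HS_SCR and 39.3 ± 7.39 FPKM in 0.4% salt (SD, n = 3 each). Between the highest and the lowest library, HS_SCR replicate 1 and 0.4% salt replicate 3 in all 5 cases, the level differed 17.8-fold for Hba1, 10.5-fold for Hba2, 13.7-fold for Hbb-b1, 23.2-fold for Alas2 and 32.6-fold for Ahsp. The 5 genes together made up 0.331 to 0.445% of summed FPKM in HS_DT, 0.262 to 1.24% in HS_SCR and 0.0993 to 0.141% in 0.4% salt.

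Between HS_SCR and 0.4% salt, the comparison of the scrambled oligonucleotide and high salt with the starting state, every HS_SCR rat was above every 0.4% salt rat for all 5 genes. The same held for 19.1% of the 14338 tested loci, those averaging 1 FPKM or more, with 14.5% lower without overlap, and since these genes were chosen with the contrast known, nothing is read from their count. On the log2(FPKM + 1) scale the differences were 2.62 ± 0.59 for Hba1, 2.19 ± 0.41 for Hba2, 2.41 ± 0.62 for Hbb-b1, 2.61 ± 0.52 for Alas2 and 2.26 ± 0.41 for Ahsp (SE of the limma fit, n = 3 per group). The added 1 FPKM shrinks the change of a low gene, and with 0.1 FPKM the Ahsp difference was 3.50. The median difference of the 5 genes was 2.41, against 0.02 over all tested loci.

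Between HS_DT and 0.4% salt, all 5 genes were again higher without overlap, as were 14.2% of tested loci, with 9.64% lower. The log2 differences were 1.63 ± 0.59 for Hba1 (95% interval 0.28 to 2.97), 1.46 ± 0.41 for Hba2 (0.53 to 2.39) and 1.84 ± 0.62 for Hbb-b1 (0.43 to 3.25). Alas2 differed by 1.54 ± 0.52 (0.34 to 2.73) and Ahsp by 0.82 ± 0.41 (-0.11 to 1.75), or by 1.63 for Ahsp with 0.1 FPKM added. These intervals describe genes picked for their values and are not tests. Their SE come from the fit of all 3 groups and so include the wide spread of HS_SCR, which is not in this comparison. In a fit of HS_DT and 0.4% salt alone, the SE were 0.21 for Hba1, 0.18 for Hba2 and 0.19 for Hbb-b1. For Alas2 and Ahsp they were 0.23 and 0.21, with the same differences. Both contrasts share the 3 rats of 0.4% salt.

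Between HS_DT and HS_SCR, which asks what the Dnmt3a and Tet3 GapmeRs add to high salt, the ranges overlapped for Hba1, Hba2, Hbb-b1 and Alas2. Ahsp was lower in HS_DT without overlap, as were 12.5% of tested loci, with 9.1% higher. The nearest rats were at 2.22 FPKM in HS_DT and 2.27 FPKM in HS_SCR. Ahsp passed the filter mostly through HS_SCR, at 6.56 FPKM on average, and nothing is read from its separation. The log2 differences were -1.0 ± 0.59 for Hba1 (95% interval -2.34 to 0.35), -0.73 ± 0.41 for Hba2 (-1.66 to 0.20) and -0.56 ± 0.62 for Hbb-b1 (-1.98 to 0.85). Alas2 differed by -1.07 ± 0.52 (-2.26 to 0.12) and Ahsp by -1.43 ± 0.41 (-2.36 to -0.51). Each HS_SCR library moved these values: the Hba1 difference was -0.44, -0.76 and -1.79 without HS_SCR replicate 1, 2 and 3 in turn, and that of Hbb-b1 was -0.06, -0.20 and -1.43.

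Within the series of rat numbers the order of groups was not the same at every gene. In the lower series, Hba1 was at 1776 and 2324 FPKM in HS_DT and at 8246 and 5325 FPKM in HS_SCR. In the higher series, it was at 1695 FPKM in the 1 HS_DT rat, 1267 FPKM in the 1 HS_SCR rat and 463 to 723 FPKM in 0.4% salt. HS_DT was therefore below HS_SCR in the lower series and above it in the higher series, for Hba1, Hba2, Hbb-b1 and Alas2. For Ahsp it was below in both, at 0.862 and 2.22 FPKM in HS_DT against 8.98 and 8.42 FPKM in HS_SCR, and at 1.60 FPKM in HS_DT against 2.27 FPKM in HS_SCR. With the series as a factor in the fit, the log2 difference of Hba1 was 1.74 between HS_SCR and 0.4% salt and 0.74 between HS_DT and 0.4% salt; all 3 rats of 0.4% salt are in the higher series.

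The members moved together across libraries. Against 0.4% salt, shifts in their proportions, computed with no FPKM added, were smaller than those in level. Between HS_DT and HS_SCR, the shift of Ahsp over haemoglobin (-1.01) was about as large as the level difference of Hba1 (-1.0). For each pair of the 5 genes, Pearson's r of log2(FPKM + 1) over the 9 libraries was between 0.905 and 0.995, and between 0.831 and 0.989 after each group's mean was subtracted. These are descriptions over 10 pairs, and the genes share libraries and group means. Hbb-b1 per 1000 of summed Hba1 and Hba2 FPKM was 50, 59.0 and 56.5 in HS_DT, 41.6, 52.7 and 34.8 in HS_SCR, and 45.7, 42.6 and 47.6 in 0.4% salt. HS_DT lay above 0.4% salt without overlap, with a log2 difference of 0.28. The other log2 differences of this ratio were 0.38 between HS_DT and HS_SCR and -0.09 between HS_SCR and 0.4% salt, both with overlap, and the last became 0.09 with all loci of both globin clusters. The ratios are made of the members' own FPKM and are descriptions too.

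Alas2 per 1000 of summed haemoglobin FPKM (Hba1, Hba2 and Hbb-b1) was 2.97, 3.69 and 3.88 in HS_DT, 3.63, 4.54 and 3.94 in HS_SCR, and 3.10, 3.16 and 2.45 in 0.4% salt. HS_SCR lay above 0.4% salt without overlap, by 0.48 on the log2 scale, while HS_DT overlapped both, with differences of 0.28 from 0.4% salt and -0.20 from HS_SCR. Ahsp per 1000 of haemoglobin was 0.330, 0.690 and 0.673 in HS_DT, 0.846, 1.22 and 1.22 in HS_SCR, and 0.569, 0.386 and 0.406 in 0.4% salt. The Ahsp ratio was thus higher in HS_SCR than in either other group without overlap, including replicate 3, whose haemoglobin was low. Its log2 difference was -1.01 between HS_DT and HS_SCR and 1.27 between HS_SCR and 0.4% salt, and 0.26 between HS_DT and 0.4% salt. With 1 FPKM added to both terms, the difference between HS_SCR and 0.4% salt turned to -0.27, because Ahsp is under 1 FPKM in 0.4% salt.

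Hba1 per Hba2 was 2.49, 3.24 and 3.04 in HS_DT, 4.24, 4.24 and 2.37 in HS_SCR, and 2.67, 2.61 and 2.50 in 0.4% salt. The 2 libraries with the most haemoglobin had the highest ratio, and the assignment between these copies is uncertain.

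**Figure D2:**
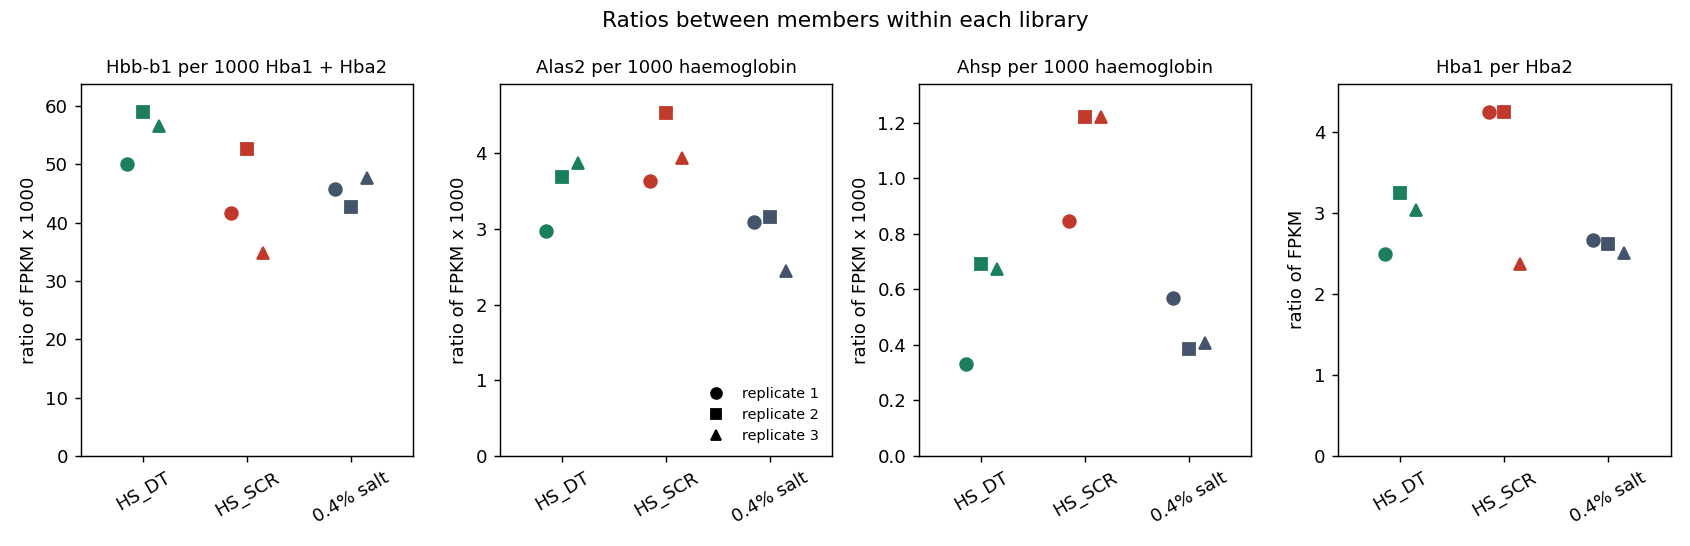
Ratios of FPKM within each library, by group (axes from 0): Hbb-b1 per 1000 alpha globin, Alas2 and Ahsp per 1000 haemoglobin, and Hba1 per Hba2. The Ahsp ratio is 0.846 to 1.22 in HS_SCR, above the 0.330 to 0.690 of HS_DT and the 0.386 to 0.569 of 0.4% salt, while the other ratios overlap between HS_DT and HS_SCR.

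Other expressed loci of the globin clusters followed the same order of group means. On build rn5, Hba2 lies at chr10:15484460-15485305 and Hba1 at chr10:15497885-15498744, with Hbb-b1 at chr1:175104275-175111736. Hbb, a locus of the beta cluster that the table also names with an Ensembl ID, was at 610, 815 and 601 FPKM in HS_DT, 2331, 1761 and 373 FPKM in HS_SCR, and 231, 218 and 131 FPKM in 0.4% salt. Hbb rose in HS_SCR against 0.4% salt by 2.62 ± 0.60 (limma, adjusted p = 0.0277 over all tested loci), and its differences did not pass between HS_DT and 0.4% salt (1.83 ± 0.60, adjusted p = 0.5) or HS_DT and HS_SCR (-0.79 ± 0.60, adjusted p = 0.507). Hbb is similar in sequence to Hbb-b1 and is no independent measurement of it. At 786 FPKM over the 9 libraries, Hbb exceeded Hbb-b1 (154 FPKM), and beta over alpha FPKM with all loci of both clusters was 30.5 to 34.0% in HS_DT, 25.2 to 33.7% in HS_SCR and 25.6 to 29.0% in 0.4% salt.

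Hbq1b, a theta globin gene, averaged 0.688 FPKM in HS_DT, 1.72 FPKM in HS_SCR and 0.229 FPKM in 0.4% salt, with overlap between HS_SCR and 0.4% salt. The embryonic and fetal type globin genes Hbz, Hbe2 and Hbg1 were listed at 0 in all 9 libraries, and Hbe1 at 0.243 FPKM in HS_SCR replicate 1 and 0 elsewhere. Globins outside the red cell lineage were split: myoglobin (Mb) was listed at 0 in every library, while cytoglobin (Cygb), a globin of fibroblast-like cells, averaged 103 FPKM in HS_DT, 143 FPKM in HS_SCR and 81.4 FPKM in 0.4% salt. Cygb rose in HS_SCR against 0.4% salt by 0.81 ± 0.14 (limma, adjusted p = 0.0116).

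Other genes of red cells were taken from 4 lists: other globins, membrane and skeleton genes, erythroid factors with the erythropoietin receptor, and genes of late precursors. Of 67 symbols, 49 had a locus in the table and 24 passed the 1 FPKM filter. Of these 24, 23 were at 1 FPKM or more in 0.4% salt, and which cells make them was not tested. Between HS_SCR and 0.4% salt, 5 of the 24 rose, 1 fell and 18 did not pass the limma test, where 8.2% of all tested loci rose and 4.88% fell. Of the 5, 1 was Hbb, which is no independent measurement of Hbb-b1. Counts of the 24 therefore include the pattern by which the members were chosen. Their median log2 difference was 0.13, against 0.02 over all tested loci. At an unadjusted p under 0.05 there were 12 of the 24, and 32.0% of all tested loci.

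Besides Hbb, the genes that rose were Zfpm1, the GATA cofactor FOG1 (0.57 ± 0.16, adjusted p = 0.0488), Bpgm, which makes the haemoglobin ligand 2,3-bisphosphoglycerate (0.49 ± 0.14, adjusted p = 0.0488), Isg20, an RNA exonuclease (0.48 ± 0.10, adjusted p = 0.0235), and Bnip3l, which clears mitochondria from reticulocytes (0.37 ± 0.07, adjusted p = 0.0158; limma for all). Bpgm was at 30.3, 31.2 and 26.5 FPKM in HS_DT, 43.2, 37.9 and 30.1 FPKM in HS_SCR, and 23.8, 28.5 and 25.1 FPKM in 0.4% salt. HS_SCR replicate 3 was the lowest of its group for Bpgm, as for the globins, but not for Zfpm1, Isg20 or Bnip3l. In HS_SCR, Zfpm1 was at 11.2, 9.58 and 15.2 FPKM, Isg20 at 12.3, 9.46 and 11.1 FPKM, and Bnip3l at 44.5, 46.7 and 45.2 FPKM. Dmtn, the actin bundler dematin of the red cell skeleton, fell by 0.87 ± 0.24 on the log2 scale (limma, adjusted p = 0.0475), at 30.1 ± 11.7 FPKM in HS_SCR against 53.1 ± 2.26 FPKM in 0.4% salt (SD, n = 3 each). These changes were well under those of the globins, and the 6 calls depended on single libraries: there were 13 without HS_SCR replicate 3, 2 without HS_SCR replicate 2, 2 or 3 without any 1 of the HS_DT rats, and 0 or 1 without any 1 of the rats of 0.4% salt. The anion exchanger Slc4a1, a red cell membrane protein that kidney intercalated cells also make, averaged 78.2 FPKM in HS_DT, 78.9 FPKM in HS_SCR and 90.3 FPKM in 0.4% salt.

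In HS_DT, limma called 0 of the 24 against 0.4% salt and 0 of the 24 against HS_SCR, where 0.0% and 0.00697% of all tested loci were called in either direction. The 1 locus called between HS_DT and HS_SCR, Cldn7, a claudin of tubular tight junctions, is named here because it is the only one. At an unadjusted p under 0.05 there were 1 of the 24 against 0.4% salt (7.49% of tested loci) and 5 of the 24 against HS_SCR (19.1% of tested loci). The smallest p against HS_SCR among late precursor genes was that of Bnip3l, at 35.9 ± 1.49 FPKM in HS_DT and 45.4 ± 1.11 FPKM in HS_SCR (SD, n = 3 each; limma adjusted p = 0.0772). Nfe2, an activator of globin genes, averaged 1.78 FPKM in HS_DT, 2.21 FPKM in HS_SCR and 0.967 FPKM in 0.4% salt, with no call in any comparison.

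The 25 list genes under the filter, which include most genes specific to red cells, were described by range only. Of these, 3 were at 0 throughout and 22 were above 0 in at least 1 library. Between HS_SCR and 0.4% salt, 8 of the 22 were higher without overlap and 1 was lower, where 4.51% of all 8573 loci above 0 and under 1 FPKM were higher and 11.9% were lower. Rhd, a red cell blood group protein, was at 0.549, 0.565 and 0.369 FPKM in HS_DT, 1.72, 1.22 and 0.591 FPKM in HS_SCR, and 0.297, 0.258 and 0.176 FPKM in 0.4% salt. Its 3 groups did not overlap, with HS_DT between the other groups.

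Hemgn, a nuclear protein of haematopoietic cells, was at 0.374, 0.378 and 0.214 FPKM in HS_DT, 0.807, 0.874 and 0.612 FPKM in HS_SCR, and 0.104, 0.135 and 0.143 FPKM in 0.4% salt. Kel, the Kell blood group protein, averaged 0.386 FPKM in HS_DT, 0.723 FPKM in HS_SCR and 0.209 FPKM in 0.4% salt. The ranges of both separated all 3 groups in that order, as for Rhd. Also higher in HS_SCR than in 0.4% salt without overlap were Add2 and Epb42 of the membrane skeleton, the carbonic anhydrase Ca1, and Trim10, the last of which was at or under 0.1 FPKM in every library.

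Between HS_DT and 0.4% salt, 8 of the 22 were higher (4.85% of all such loci) and 2 lower (5.26%), and between HS_DT and HS_SCR 0 were higher (8.99%) and 6 were lower (3.17%). The 6 were Rhd, Kel, Hemgn, Epor, Ca1 and Trim10. Of the 12 erythroid factors, 6 passed the 1 FPKM filter, among them Ldb1 (38.3 FPKM over the 9 libraries) and Lmo2 (36.4 FPKM), which endothelial and other cells are known to express too. Gata1, the master regulator of red cell genes, was at 0 to 0.0685 FPKM over the 9 libraries, and Klf1, an activator of beta globin, averaged 0.214 FPKM in HS_DT, 0.583 FPKM in HS_SCR and 0.333 FPKM in 0.4% salt. Values this low rest on few fragments, and the depth that would give their counting error is unknown.

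**Figure D3:**
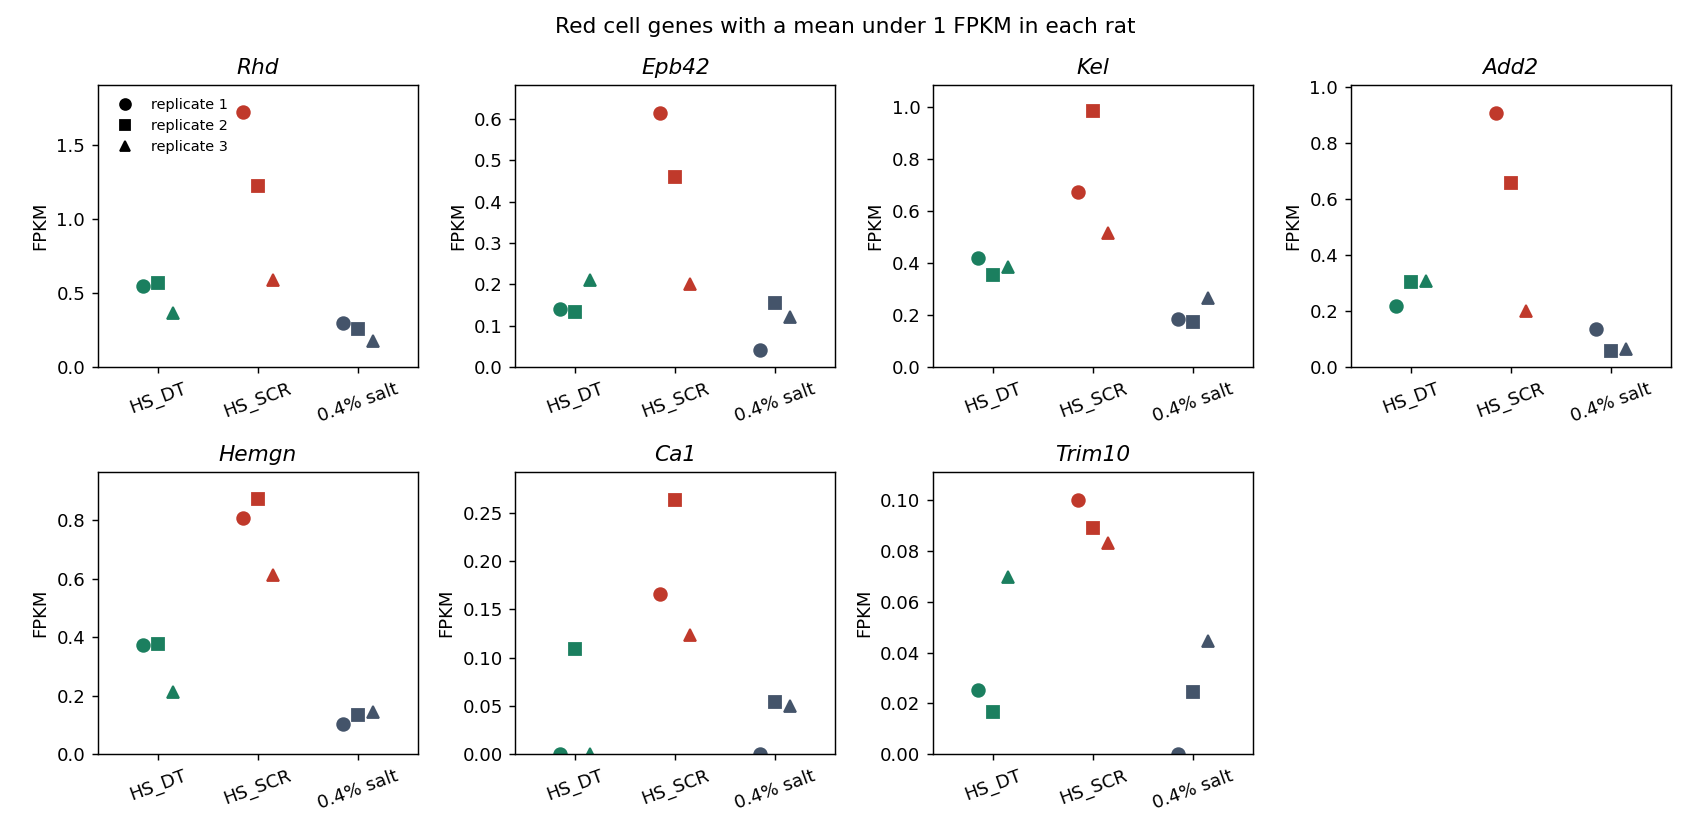
FPKM (axes from 0) in each rat of 7 red cell genes under a mean of 1 FPKM that were higher in HS_SCR than in 0.4% salt without overlap, which is how they were chosen for display. Rhd, Kel and Hemgn also separate HS_DT from both other groups, at 0.369 to 0.565 FPKM for Rhd.

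Of 16 tested genes of haem synthesis and its iron supply, 1 rose and 2 fell in HS_SCR against 0.4% salt, where 8.2% of all tested loci rose and 4.88% fell. Of 7 tested haem synthesis enzymes other than Alas2, 1 rose and 1 fell in HS_SCR against 0.4% salt: Urod, uroporphyrinogen decarboxylase, at 36.1 FPKM in HS_DT, 49.3 FPKM in HS_SCR and 38.3 FPKM in 0.4% salt (0.35 ± 0.07, limma adjusted p = 0.0186), and Uros, uroporphyrinogen III synthase, at 4.41 FPKM in HS_DT, 2.84 FPKM in HS_SCR and 4.52 FPKM in 0.4% salt (-0.53 ± 0.15, limma adjusted p = 0.0489). Their median difference was -0.06, and the housekeeping synthase Alas1 differed by -0.22 (limma adjusted p = 0.0969). Of 9 genes that supply iron to haem synthesis, 1 fell, and the transferrin receptor Tfrc differed by -0.41 (limma adjusted p = 0.0874). In HS_DT, limma called 0 genes of either list against 0.4% salt or HS_SCR. At an unadjusted p under 0.05 there were 0 of each list against 0.4% salt (7.49% of tested loci). Against HS_SCR there were 2 of the 7 enzymes and 1 of the 9 iron genes (19.1% of tested loci).

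Genes that take up haemoglobin and haem or store iron were tested at 16 loci, of which 1 rose between HS_SCR and 0.4% salt. Over all tested loci, 8.2% rose. Fth1, the ferritin heavy chain, was at 3248, 3240 and 2733 FPKM in HS_DT, 4485, 5679 and 3277 FPKM in HS_SCR, and 2817, 2536 and 2519 FPKM in 0.4% salt (0.74 ± 0.19, limma adjusted p = 0.0415). Cd163, the haemoglobin scavenger receptor of macrophages, was at 64.9 FPKM in HS_SCR replicate 3 and at 0.103 to 0.989 FPKM in the other 8 libraries. Hmox1, the haem-degrading oxygenase, was at 119 FPKM in that library and at 20.8 to 32.1 FPKM in the others. The library with the least haemoglobin on high salt was thus the one with the most Cd163 and Hmox1. It is also the library far from the rest on principal component 2, at -51.47. A link between these values was not tested. Neither gene passed the test (limma adjusted p = 0.288 for Cd163 and 0.258 for Hmox1), nor did any gene of this list in the HS_DT comparisons. With limma at an unadjusted p under 0.05, there were 0 of the 16 against 0.4% salt (7.49% of tested loci) and 6 against HS_SCR (19.1%).

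Epo, erythropoietin, was listed at 0 in all 9 libraries. Of 5 tested genes of oxygen sensing, limma called 0 in each comparison. At an unadjusted p under 0.05 there was 1 between HS_SCR and 0.4% salt, where 32.0% of tested loci passed. There were 0 between HS_DT and 0.4% salt (7.49% of tested loci) and 0 between HS_DT and HS_SCR (19.1%). The prolyl hydroxylase Egln3, a known target of hypoxia-inducible factor, averaged 12.5 FPKM in HS_DT, 14.2 FPKM in HS_SCR and 10.7 FPKM in 0.4% salt (0.38 ± 0.11 between HS_SCR and 0.4% salt, limma adjusted p = 0.0632). Epas1, which drives Epo, averaged 51.8 FPKM in HS_DT, 45.2 FPKM in HS_SCR and 51.8 FPKM in 0.4% salt.

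**Figure D4:**
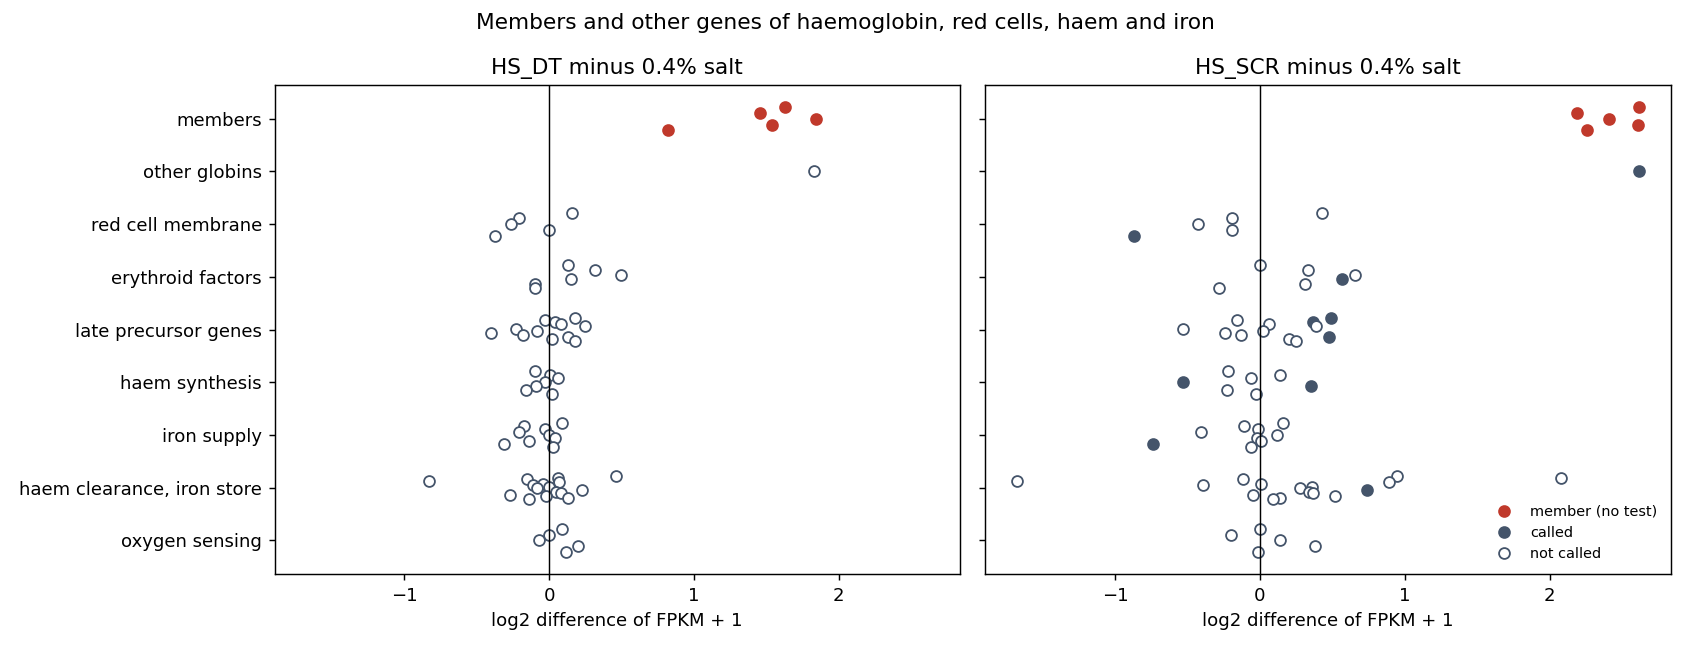
Log2 differences of FPKM + 1 against 0.4% salt for HS_DT (left) and HS_SCR (right); each point is a gene, filled dark where limma called it at an adjusted p under 0.05, and red for the 5 genes described, which were not tested. In HS_SCR the 5 genes and Hbb lie between 2.19 and 2.62, while most genes of the other lists lie near 0 and Cd163, not called, is at 2.08.

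Some markers of other blood cells were also higher in HS_SCR. Over all tested loci, 8.2% rose and 4.88% fell in HS_SCR against 0.4% salt, the background for the marker counts that follow. Summed FPKM of 15 neutrophil markers was 295, 385 and 346 in HS_DT, 523, 1155 and 969 in HS_SCR, and 149, 180 and 225 in 0.4% salt. Most of it was Lcn2, which injured tubules also make, and without Lcn2 the other 14 summed to 90.2, 128 and 114 in HS_DT, 172, 508 and 118 in HS_SCR, and 35.4, 39.9 and 38.6 in 0.4% salt. On that sum HS_SCR replicate 3 was the lowest of its group and lay within the range of HS_DT, and every rat on high salt was above those of 0.4% salt. Of 6 tested markers, 3 rose in HS_SCR against 0.4% salt: S100a9, S100a8 and Lcn2, while Retnlg was lower without overlap, with no call. S100a9 averaged 22.2 FPKM in HS_DT, 105 FPKM in HS_SCR and 2.47 FPKM in 0.4% salt (4.50 ± 0.58 between HS_SCR and 0.4% salt, limma adjusted p = 0.00638). The granule genes Mpo, Elane and Ltf were at 0 to 0.568 FPKM over the 9 libraries.

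The sum of 12 platelet markers was 30.1, 33.4 and 38.1 in HS_DT, 65.8, 59.3 and 54.6 in HS_SCR, and 23.2, 22.2 and 30.4 in 0.4% salt, but it was mostly Pf4. Pf4, a chemokine of platelets that macrophages can also make, was at 24.0, 27.4 and 28.8 FPKM in HS_DT, 59.2, 53.8 and 48.8 FPKM in HS_SCR, and 18.3, 16 and 24.8 FPKM in 0.4% salt, and was the 1 of 4 tested markers that rose in HS_SCR against 0.4% salt (1.43 ± 0.15, limma adjusted p = 0.00566). The platelet genes Ppbp, Gp9, Gp5 and Gp1ba were at 0 to 0.361 FPKM. Lymphocyte markers summed to 114 to 137 in HS_DT, 83.4 to 137 in HS_SCR and 94.3 to 98.6 in 0.4% salt, where 1 of 9 rose in HS_SCR (Cd79b, 0.91 ± 0.24, limma adjusted p = 0.0395), and CD79A was listed at 0 throughout.

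Macrophage and monocyte markers summed to 2546 to 2844 in HS_DT, 2724 to 3828 in HS_SCR and 1593 to 1803 in 0.4% salt. In HS_SCR against 0.4% salt, where 8.2% of all tested loci rose, 7 of 13 rose, led by C1qb (1.63 ± 0.15, limma adjusted p = 0.00564). Endothelial markers, genes of the vessel wall, had median sums of 609 in HS_DT, 653 in HS_SCR and 573 in 0.4% salt, and the groups overlapped. Of 14 tested, 2 rose in HS_SCR: EGFL7 (0.80 ± 0.12, limma adjusted p = 0.00823) and Pecam1 (0.39 ± 0.10, limma adjusted p = 0.0415). Their median difference between HS_SCR and 0.4% salt was 0.06. Of the tubular lists, 5 of 13 proximal tubule markers and 4 of 12 thick ascending limb markers fell in HS_SCR, against 4.88% of all tested loci. Of 10 principal cell markers, 0 changed, with 3 at an unadjusted p under 0.05 (limma), against 32.0% of all tested loci. The part of blood cells, vessels or tubules in the haemoglobin values was not tested.

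**Figure D5:**
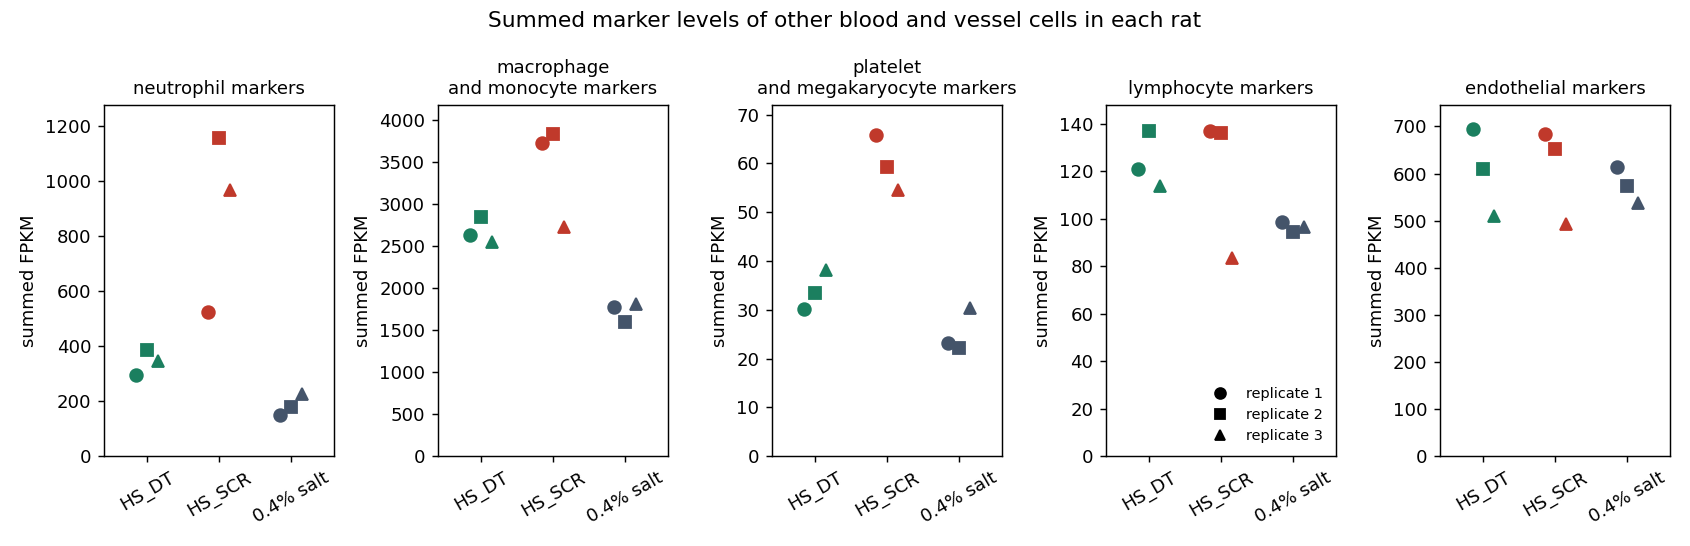
Summed FPKM of marker lists in each rat, by group (axes from 0). The neutrophil sum, mostly Lcn2, and the platelet sum, mostly Pf4, separate HS_SCR from both other groups, at 523 to 1155 and 54.6 to 65.8, while the lymphocyte and endothelial sums of HS_SCR overlap both.

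Genes with a pattern most like the mean of the 5 were sought among 12095 other tested loci with a single symbol, by Pearson's r of log2(FPKM + 1) over the 9 libraries, which share the group means. The highest was Lgals5, galectin-5, a lectin known from rat reticulocytes, with r = 0.987. Lgals5 was at 1.32, 2.17 and 1.34 FPKM in HS_DT, 6.23, 5.38 and 1.44 FPKM in HS_SCR, and 0.260, 0.281 and 0.321 FPKM in 0.4% salt. HS_SCR replicate 3 lay within the range of HS_DT, and all rats on high salt were above those of 0.4% salt. Like Ahsp, Lgals5 passed the filter mostly through HS_SCR, at 4.35 FPKM on average, and nothing is read from its rank. Next came Spsb2 (r = 0.983), Trim47 (0.979), Cct4 (0.977), Tyrobp (0.972), Emd (0.971), Gmfg (0.970), Snrpd1 (0.969), Srgn (0.968) and Tmem192 (0.967), whose levels varied less. Tyrobp, a signalling adaptor of myeloid cells, was at 193, 210 and 178 FPKM in HS_DT, 324, 280 and 151 FPKM in HS_SCR, and 131, 117 and 132 FPKM in 0.4% salt.

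After each group's mean was subtracted, where HS_SCR replicate 3 lies farthest from its group for the members, the 10 most alike were Lck (r = 0.998), Tstd2 (0.994), Rprd1b (0.993), Mrpl42 (0.989), Ctsw (0.988), Sec11c (0.986), Hsbp1 (0.986), Slc15a4 (0.985), Nfkb2 (0.984) and Fam120a (0.983). Lck, a kinase of T cells, was at 4.74, 5.44 and 4.80 FPKM in HS_DT, 5.95, 5.55 and 3.36 FPKM in HS_SCR, and 5.42, 5.30 and 4.70 FPKM in 0.4% salt. Its HS_SCR replicate 3 was the lowest of the 9 libraries. Lgals5 was not among these 10, and no gene was in both sets of 10.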

How the data were processed

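Outer medullary RNA of 9 rats, 3 per group, was sequenced in 1 library each. The authors deposited FPKM for 30315 loci. The submitters' processing notes name Cufflinks 2.2.1, Trim Galore 0.2.5 and the rat build rn5; the sources used here give no aligner, annotation or scaling step. Libraries were matched to columns by the rat number in the title, and 1 further column, a repeat of HS_DT replicate 3 at every locus, was set aside. No gene name is given for 4095 loci.

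From the FPKM, log2(FPKM + 1) was fitted with limma 3.58.1 (trend) in R 4.3.3 at the 14338 loci averaging 1 FPKM or more. All 3 groups shared 1 fit, with residual degrees of freedom of 6, or 8.54 moderated. Tests were two-sided and adjusted by Benjamini-Hochberg over all tested loci, with an adjusted p under 0.05 called changed. Intervals are 95% intervals of the same fit, and p-values measure the spread between these rats. Ratios were computed in Python 3.11.15. Permutation tests planned for them are not given, since they would test the values that chose the members and, with 3 rats a group, could not pass the threshold. The limma fit was tried on simulated data first. Promoter windows come from a RefSeq table, matched by symbol; Alas2 was left out, since its listed start lies 4800 bases inside the gene, and Ahsp has no entry.

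The members, the 17 gene lists and the tests were chosen with earlier results of these data known. Named genes follow a rule: every member; from each list up to 4 called genes with the largest change, or the 2 with the smallest p; and the 10 loci most like the members by each of both measures. The text names further list genes, chosen after their values were seen, and some genes are not reported here. No label says that replicate numbers pair rats: residuals of same-numbered libraries correlated above 0.1 in 5 of 9 pairs (-0.076 to 0.259), so no pairing was used. The alternatives tried were adding 0.1 or 0.5 FPKM, no filter, a minimum mean of 5 FPKM, median-ratio and quantile scaling, a fit of the 2 groups compared, the replicate number as a block, the number series of the rats as a term, and dropping each library in turn; the ratios with all globin cluster loci and the neutrophil sum without Lcn2 were added after seeing the data.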

Additional observations from a re-analysis of the deposited data

How the results depend on the processing

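Of 267 alternative values of the 5 genes, 259 kept their direction and moved by less than 1 SD between rats and 8 moved further, none changing sign. Those were Ahsp with a pseudocount of 0.1 FPKM, at 3.50 between HS_SCR and 0.4% salt and 1.63 between HS_DT and 0.4% salt, and, with the number series of the rats in the fit, Hba1, Hba2 and Hbb-b1 at 1.74, 1.56 and 1.47 between HS_SCR and 0.4% salt and at 0.74, 0.83 and 0.90 between HS_DT and 0.4% salt. Counts of calls depended far more on settings. Between HS_SCR and 0.4% salt, 466 loci were called in a fit of those groups alone and 347 to 5188 when each library was left out, against 1874; red cell list genes numbered 3 with no filter, 0 in the fit of those groups alone and 0 to 13 when each library was left out, against 6. Between HS_DT and 0.4% salt, 2 loci were called at a minimum mean of 5 FPKM, 1 in the fit of those groups alone and 0 to 6 when each library was left out, against 0. Between HS_DT and HS_SCR, 3 loci were called with no filter, 154 at a minimum mean of 5 FPKM, 0 with quantile scaling, 422 with the series as a factor and 0 to 2300 when each library was left out (2300 without HS_SCR replicate 3), against 1; red cell list genes numbered 1 with the series as a factor and 0 to 3 when each library was left out, against 0. With the replicate number as a block, 0 loci were called between HS_DT and HS_SCR, and the block moved no other count by over 1.5 times; the numbers are not known to pair rats. Ratios that turned were Hbb-b1 over alpha globin between HS_SCR and 0.4% salt, at 0.09 with all cluster loci and -0.25 to 0.05 when each library was left out, and, with 1 FPKM added, Ahsp over haemoglobin at -0.27 between HS_SCR and 0.4% salt and -0.78 between HS_DT and 0.4% salt, and Alas2 over haemoglobin at -0.06 between HS_DT and 0.4% salt. The cause of these changes was not tested, except that 1 FPKM is large beside Ahsp and Alas2 in 0.4% salt. Depth is unknown, which limits what can be said of genes under 1 FPKM.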
